A study of Homo sapiens with 2 samples.

Results

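The TRAIL and FAS death receptor genes are a set of 10 genes: the TRAIL ligand gene TNFSF10, its signalling receptor genes TNFRSF10A and TNFRSF10B, its decoy receptor genes TNFRSF10C and TNFRSF10D, the receptor gene FAS, the adaptor gene FADD, the initiator caspase genes CASP8 and CASP10, and the inhibitor gene CFLAR. They were chosen by symbol from the 56586 genes of the deposited tables, and all 10 were found once in each table. RNA sequencing was done on 2 libraries, PJ and PF, of the human colon cancer cell line HCT116, an epithelial line. The submitters describe both libraries as biological replicates of 1 group. The labels give no treatment for either and do not say what the letters PJ and PF stand for. The cells grew in DMEM with fetal bovine serum and penicillin with streptomycin. Each library is a single cell line culture, so a level describes this line and not colon epithelium. The study also names normal colon samples, which were not analysed here.

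Death receptors are cell surface proteins of the TNF receptor superfamily that carry a death domain inside the cell. When TRAIL or FAS ligand binds, the receptor recruits the adaptor FADD, which in turn gathers procaspase-8 and procaspase-10 into a signalling complex where they activate each other. Decoy receptors bind TRAIL but have no functional death domain, and the CFLAR protein (c-FLIP) resembles the initiator caspases but lacks protease activity and limits their activation. TRAIL and FAS ligand are among the effector molecules of T cells and natural killer cells, and epithelial cells carry the receptors.

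Levels are given as FPKM, fragments per kilobase of transcript normalised to library size, which is a per-length scale and so can be compared between genes. The bounds are the deposited 95% bounds of each estimate. They describe the estimate within a library and not the variation between cultures, and with 1 library on each side no difference has a p-value. The number of fragments behind the libraries is unknown. All 5 defining epithelial markers (EPCAM, KRT8, KRT18, KRT19 and CDH1) reached 1 FPKM in both libraries. The lowest of them was CDH1, with 1.80 FPKM in PJ and 21.9 FPKM in PF. The highest mean was that of KRT8, with 279.6 FPKM in PJ and 760.4 FPKM in PF. Lower in PJ with bounds apart were 4 of the 5 (all but KRT19), beside 18.3% of symbols that average at least 1 FPKM. At least 2-fold lower were 2 of them (KRT8 and CDH1), beside 5.22% of such symbols. The KRT8 estimate in PF lay below its own bounds (764 to 783). The summed level of the 5 markers was 896 FPKM in PJ and 1518 FPKM in PF. The part of this difference in the results below was not tested. Of 7 T cell and natural killer cell markers none reached 1 FPKM in either library, and their summed level was 0.599 FPKM in PJ and 0.918 FPKM in PF, with NKG7 listed at 0 in both. Of 5 fibroblast markers 1 passed (COL1A1, 2.93 FPKM in PJ and 7.28 FPKM in PF), with a summed level of 3.64 FPKM in PJ and 7.47 FPKM in PF and LUM listed at 0 in PJ.

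HCT116 cells carried transcripts of every step of this pathway apart from the ligands. In both libraries, 8 of the 10 genes reached 1 FPKM, where 27.9% of all symbols and 57.3% of protein-coding symbols were. The exceptions were TNFSF10, under the threshold in both, and CASP10, under it in PF alone. Each of the 10 genes had its estimate inside the deposited bounds in PJ and in PF, as did 84.0% of the symbols that have 1 row and average at least 1 FPKM.

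The sequences below lie ahead of the start sites of the gene that was under 1 FPKM in both libraries (TNFSF10) and of the single member that was at least 2-fold higher in PJ (FADD). They are shown because FADD has the most CpG of the 12 promoter windows found for the set while the single window of TNFSF10 has few. Each runs 5′ to 3′ on the strand of its gene, stops before the first annotated exon, and has CpG dinucleotides, the sites of DNA methylation, in capitals. They are RefSeq sequences on GRCh38.p14, FADD at chr11:70203046-70203162 on the plus strand and TNFSF10 at chr3:172523508-172523680 on the minus strand.
FADD: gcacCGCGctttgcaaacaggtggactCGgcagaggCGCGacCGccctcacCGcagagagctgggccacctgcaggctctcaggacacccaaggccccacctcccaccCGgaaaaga
TNFSF10: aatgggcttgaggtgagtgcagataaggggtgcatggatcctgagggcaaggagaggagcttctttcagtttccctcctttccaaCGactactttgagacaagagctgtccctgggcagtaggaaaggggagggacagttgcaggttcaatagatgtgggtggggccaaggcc
The stretch shown holds 8 CpG in 117 bases for FADD and 1 in 173 bases for TNFSF10. Over the full 250 bases before the RefSeq start site, FADD had 32 CpG, and 9.52% of 35116 such windows of the RefSeq promoter table had as many or more. TNFSF10 had 2 CpG there, and 85.3% of windows had as many or more; the median over all windows was 11. The windows of the other matched members had 11 to 19 CpG for FAS, 5 to 6 for CASP8 and 0 to 22 for CFLAR, which have several start sites each. The TNFSF10 window also holds the letters TATAAA, beginning 31 bases before the start site and outside the stretch shown. Of the CASP8 windows, 1 has a match too, beginning 139 bases before its start site. Matches were counted on either strand and found in 10.7% of windows. GGGCGG, the core of a GC box, occurred in the FADD window, in all 3 FAS windows, in 1 of 3 CASP8 windows and in 2 of 4 CFLAR windows, on either strand, and in 42.6% of all windows. TNFSF10 had no such match. These are letter matches only, and methylation was not measured here. The table holds windows for 5 of the 10 genes, and TNFRSF10A, TNFRSF10B, TNFRSF10C, TNFRSF10D and CASP10 are the others.

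The ligand was the lowest of the 10 genes. TNFSF10 (chr3:172223298-172241297, hg19), which encodes TRAIL, was at 0.00447 FPKM in PJ (bounds 0 to 0.205) and 0.00326 FPKM in PF (0 to 0.196). Both libraries were low, and their bounds coincide almost entirely. The gene of the other ligand, FASLG, was listed at 0 in both tables. Neither ligand was therefore detected at a level that these estimates separate from 0.

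**Figure D1:**
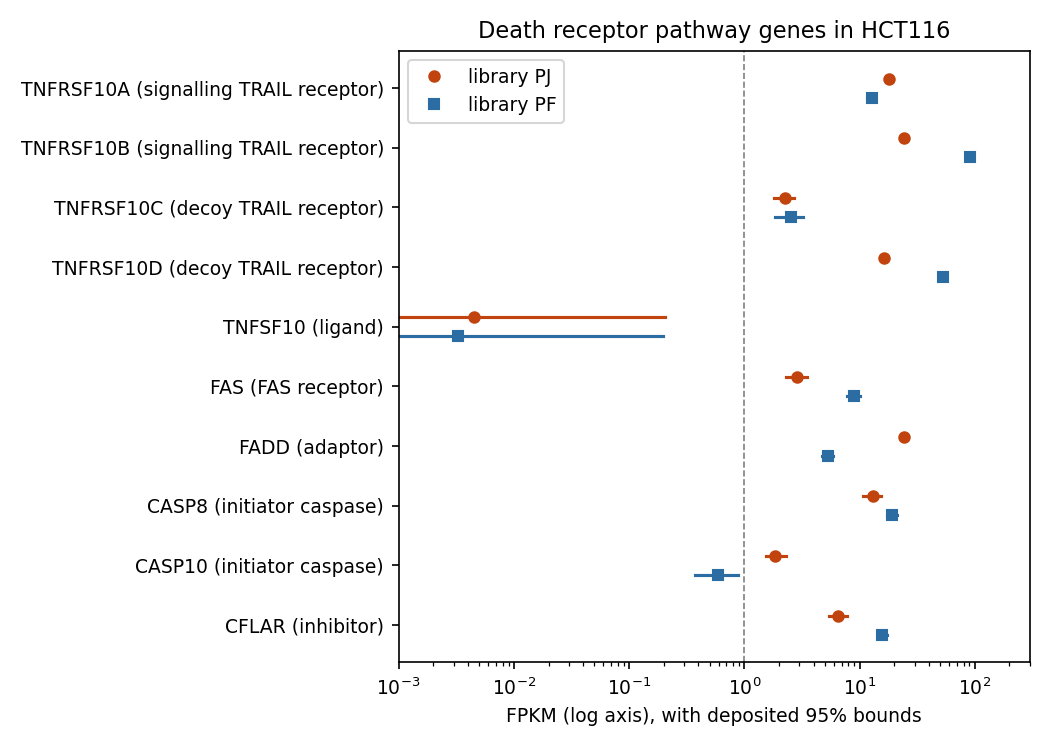
Level of each of the 10 genes in FPKM (log axis) in library PJ (circles) and library PF (squares), with lines for the deposited 95% bounds; bounds that reach 0 run to the left edge, and the dashed line marks 1 FPKM. TNFRSF10B, TNFRSF10D, FAS and CFLAR sit to the left in PJ with bounds apart from PF, FADD and CASP10 to the right, and TNFSF10 lies far below 1 FPKM in both.

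The receptors for TRAIL were the most abundant group of the set, and TNFRSF10B and TNFRSF10D were lower in PJ by more than 3-fold. TNFRSF10B (ENSG00000120889.8; chr8:22877646-22926692), the signalling receptor also called DR5, was at 24.4 FPKM in PJ (23.0 to 26.0) and 90.7 FPKM in PF (87.9 to 94.99). It was the highest of the 10 genes in PF and stood at the 95.1 percentile of protein-coding genes there, against the 78.1 percentile in PJ. The log2 ratio of PJ over PF, computed on FPKM plus 1 throughout, was -1.85. TNFRSF10D (ENSG00000173530.5; chr8:22993101-23021543), a decoy with a truncated death domain, showed the same order, at 16.2 FPKM in PJ (15.4 to 17.1) and 53.5 FPKM in PF (52.5 to 55.6), a log2 ratio of -1.66.

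The other TRAIL receptor genes did not share that difference. TNFRSF10A (ENSG00000104689.5; chr8:23047965-23082639), the signalling receptor DR4, was at 18.2 FPKM in PJ (16.5 to 18.6) and 12.8 FPKM in PF (11.6 to 13.2). It was higher in PJ, with bounds apart but a log2 ratio of 0.47, under 2-fold. TNFRSF10C (ENSG00000173535.9; chr8:22941868-22974950), a decoy anchored to the membrane by a lipid, was low in both libraries, at 2.26 FPKM in PJ (1.82 to 2.71) and 2.55 FPKM in PF (1.84 to 3.25), and its bounds overlapped.

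The make-up of the receptor pool therefore differed between the libraries. Summed over the 4 TRAIL receptor genes, the level was 61.1 FPKM in PJ and 159.5 FPKM in PF. TNFRSF10B made up 40.0% of that sum in PJ and 56.8% in PF, and TNFRSF10A 29.7% in PJ and 8.04% in PF. TNFRSF10B exceeded TNFRSF10A by 1.35 times in PJ (1.23 to 1.57 with every bound at its extreme) and by 7.07 times in PF (6.66 to 8.20). Decoy transcripts were fewer than signalling transcripts in both libraries: the decoy sum over the signalling sum was 0.434 in PJ (0.387 to 0.501) and 0.541 in PF (0.502 to 0.591), or 0.487 ± 0.0762 (SD, n = 2). Most decoy transcripts were of TNFRSF10D, which exceeded TNFRSF10C by 7.16 times in PJ and 21.0 times in PF. In bulk RNA, a lower level per cell and fewer cells that carry the transcript cannot be told apart.

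FAS (ENSG00000026103.15; chr10:90750414-90775542), the receptor for FAS ligand, was at 2.84 FPKM in PJ (2.32 to 3.51) and 8.87 FPKM in PF (7.78 to 10.0). It was lower in PJ with bounds apart, a log2 ratio of -1.36. In both libraries FAS was below the signalling TRAIL receptors and above the decoy TNFRSF10C, whose bounds overlapped those of FAS in PJ. The sum of TNFRSF10A and TNFRSF10B exceeded FAS by 15.0 times in PJ (11.3 to 19.2) and by 11.7 times in PF (9.94 to 13.9), intervals that overlap. TNFRSF10B alone exceeded FAS by 8.60 times in PJ (6.55 to 11.2) and 10.2 times in PF (8.78 to 12.2). For this pair too the intervals of the libraries overlap, so their proportion did not differ beyond the deposited bounds while both were lower in PJ.

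FADD went the other way. FADD (ENSG00000168040.4; chr11:70049269-70053496), the adaptor that links both kinds of receptor to the caspases, was at 24.5 FPKM in PJ (23.1 to 25.9) and 5.29 FPKM in PF (4.74 to 5.85). The level in PJ was 4.62 times that in PF, and the log2 ratio was 2.02. FADD was the highest of the 10 genes in PJ and the seventh in PF. Relative to FAS, FADD was 8.61 times as abundant in PJ (6.60 to 11.2) and 0.597 times in PF (0.474 to 0.753). One limit applies to FADD: the tables list an antisense gene, RP11-805J14.5, inside its span, and 51.1% of the 50-base words of the FADD transcript (GENCODE 29) also occur in that antisense transcript. The antisense gene was listed at 4.67e-05 FPKM in PJ and 5.22e-06 FPKM in PF. Whether the authors' counting used strand is not given in the sources used here, and without strand reads from the pair cannot be told apart.

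The initiator caspases had unequal levels, and they differed between the libraries in opposite directions. CASP8 (ENSG00000064012.16; chr2:202098166-202152434), the main initiator caspase of the receptor complex, was at 13.0 FPKM in PJ (10.8 to 15.3) and 19.1 FPKM in PF (17.2 to 21.3). It was lower in PJ with bounds apart, but the log2 ratio of -0.52 is under 2-fold. CASP10 (ENSG00000003400.10; chr2:202047604-202094129), its close relative, was at 1.84 FPKM in PJ (1.53 to 2.31) and 0.591 FPKM in PF (0.376 to 0.889). It was higher in PJ with bounds apart. The PJ level was 3.12 times the PF level as deposited, and the log2 ratio of 0.84 is smaller because adding 1 FPKM compresses low values. CASP8 exceeded CASP10 by 7.06 times in PJ (4.67 to 9.99) and by 32.2 times in PF (19.3 to 56.6).

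CFLAR (ENSG00000003402.14; chr2:201980827-202029033) was lower in PJ, at 6.51 FPKM (5.46 to 7.72) against 15.6 FPKM in PF (14.3 to 17.2), a log2 ratio of -1.14. Set against the caspases it limits, CFLAR over CASP8 plus CASP10 was 0.439 in PJ (0.310 to 0.627) and 0.793 in PF (0.646 to 0.980), or 0.616 ± 0.251 (SD, n = 2). Those intervals do not overlap. FADD over CASP8 was 1.88 in PJ (1.51 to 2.40) and 0.278 in PF (0.223 to 0.340). Gene-level values sum the isoforms, so long and short c-FLIP, which differ in whether they keep a caspase-like region, are not separated here.

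Set in order of level, the 10 genes ranked differently in the libraries. In PJ the order was FADD, TNFRSF10B, TNFRSF10A, TNFRSF10D, CASP8, CFLAR, FAS, TNFRSF10C, CASP10 and TNFSF10. Of the 9 neighbouring pairs in that order 4 had overlapping bounds: FADD with TNFRSF10B, TNFRSF10A with TNFRSF10D, FAS with TNFRSF10C, and TNFRSF10C with CASP10. In PF the order was TNFRSF10B, TNFRSF10D, CASP8, CFLAR, TNFRSF10A, FAS, FADD, TNFRSF10C, CASP10 and TNFSF10, and 1 pair of neighbours overlapped, CASP8 with CFLAR. TNFRSF10C, CASP10 and TNFSF10 closed the order in both.

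Counted together, 9 of the 10 genes averaged at least 1 FPKM and entered the count of 2-fold differences. Of these 4 were at least 2-fold lower in PJ (TNFRSF10B, TNFRSF10D, FAS and CFLAR), or 44.4%. Among 15736 symbols the share was 5.22%, and among protein-coding symbols 4.38%. FADD alone was at least 2-fold higher, 1 of 9, where 10.4% of symbols and 10.7% of protein-coding symbols were. The members were chosen with earlier results of these data known, so these shares are a description and not a test. The bounds were apart for 5 members lower in PJ and 3 higher in PJ, beside 18.3% and 44.5% of symbols. One of those higher, CASP10, was at 0.591 FPKM in PF and passed the filter only through its level in PJ. CASP10 is also counted in the median that follows. The median log2 ratio of the 9 members was -0.52, against 0.22 for all symbols, so the set lay below a general tilt towards PJ. Over symbols that reached 1 FPKM in both libraries, the median PJ to PF ratio was 1.19, or 0.25 on the log2 scale. With that ratio divided out, the log2 ratios were -2.09 for TNFRSF10B, -1.89 for TNFRSF10D, -1.54 for FAS, -1.36 for CFLAR, 1.78 for FADD and 0.24 for TNFRSF10A. The same 5 members then remained 2-fold apart, where 7.24% of symbols were lower and 6.22% higher. The cutoff matters for FAS and CFLAR, which were under 2-fold when 5 FPKM was added in place of 1, and for CASP10, which passed 2-fold when 0.1 FPKM was added.

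**Figure D2:**
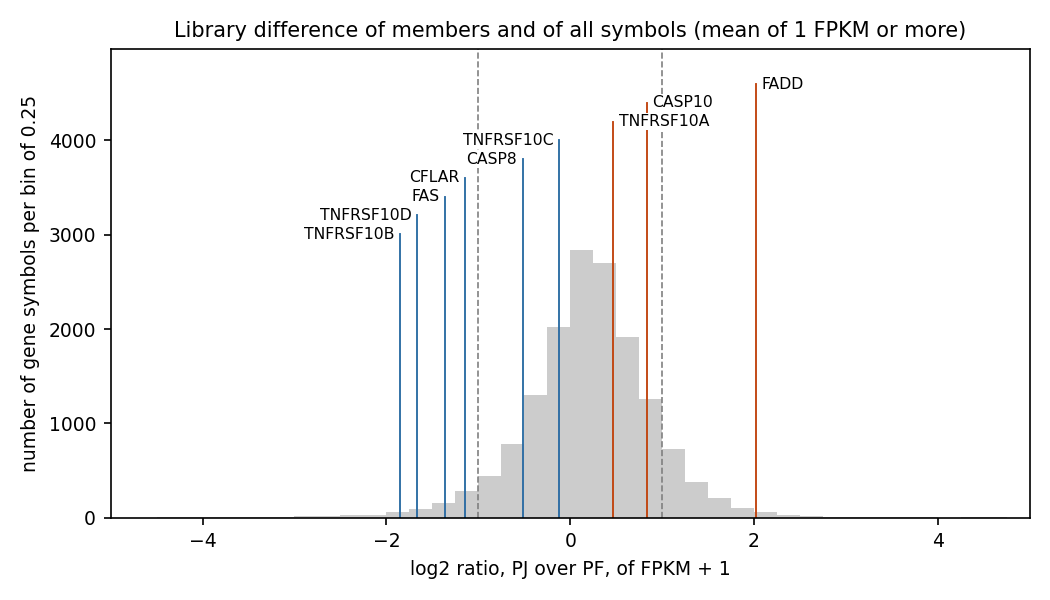
Histogram of the log2 ratio of PJ over PF (FPKM + 1) for all symbols that average at least 1 FPKM, in bins of 0.25, with a line for each of the 9 members that passed that filter; dashed lines mark 2-fold, and 87 symbols lie beyond the axis. TNFRSF10B, TNFRSF10D, FAS and CFLAR lie in the sparse left tail and FADD in the right tail at 2.02.

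Position on the chromosome did not sort the members by direction. The TRAIL receptor genes form a cluster on chromosome 8 in the order TNFRSF10B, TNFRSF10C, TNFRSF10D and TNFRSF10A, with gaps of 15.2, 18.2 and 26.4 kb. TNFRSF10B and TNFRSF10D, both lower in PJ, are separated by TNFRSF10C, which differed little. Beyond TNFRSF10A lies CHMP7, an ESCRT gene, at 35.1 FPKM in PJ and 12.0 FPKM in PF. CFLAR, CASP10 and CASP8 form a second cluster, on chromosome 2, all on the plus strand. The gap is 18.6 kb from CFLAR to CASP10 and 4.04 kb from CASP10 to CASP8. CASP10, higher in PJ, thus lies between CFLAR and CASP8, which were lower in PJ.

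**Figure D3:**
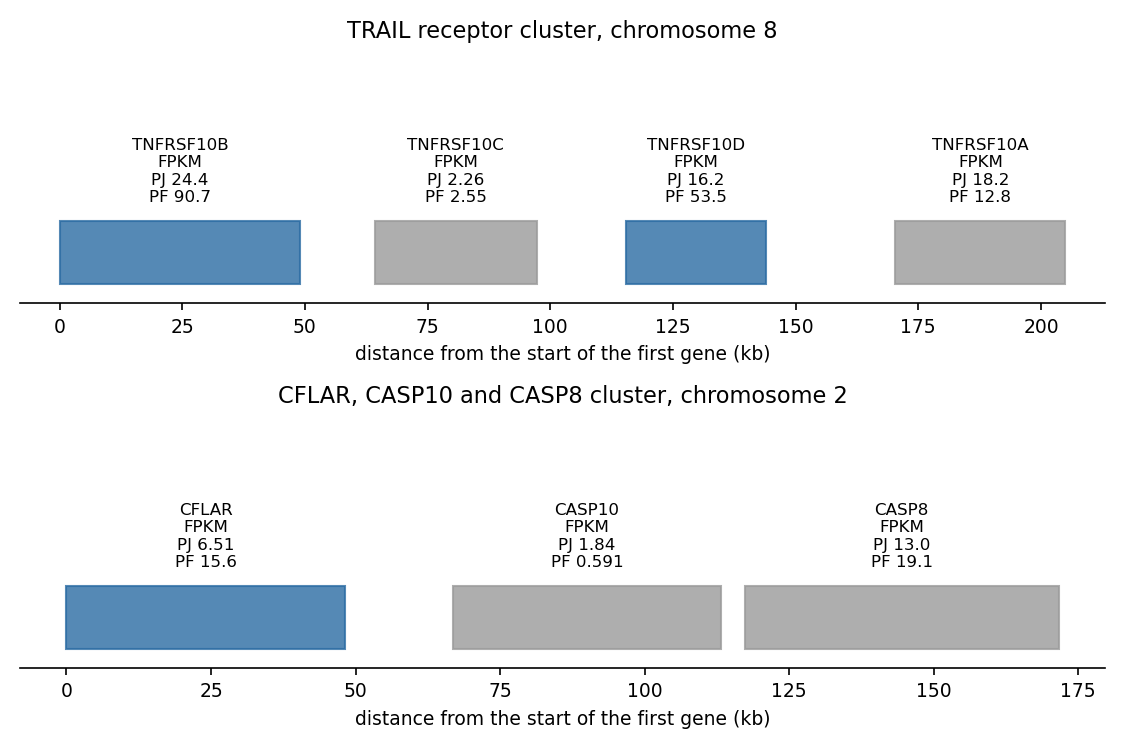
Maps of the 2 gene clusters, with distance in kb from the start of the first gene; boxes are gene spans in the deposited tables, blue where the gene was at least 2-fold lower in PJ and grey where it was not 2-fold apart, and the numbers are FPKM. Genes with and without a 2-fold difference alternate along the chromosome 8 cluster.

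Several members overlap or resemble other genes, which bears on how reads were assigned. No 50-base word was shared letter for letter between the transcripts of any pair of the 10 genes, the paralogous TRAIL receptors included. Near matches were not counted, and the read length is not given in the sources used here. TNFRSF10A shares 12.4% of its words with other genes, 5.97% with RP11-1149O23.2, an antisense gene at 3.94 FPKM in PJ and 4.58 FPKM in PF. Its span also overlaps RP11-1149O23.3 by 656 bp, at 10.8 FPKM in PJ and 3.77 FPKM in PF. FAS shares 7.09% with ACTA2, the smooth muscle actin gene on the opposite strand, at 0.503 FPKM in PJ and 1.08 FPKM in PF. CFLAR shares 14.1% with other genes, 6.34% with the pseudogene IMPDH1P10 at 1.02 FPKM in PJ and 1.04 FPKM in PF, and TNFRSF10C shares 35.4%. For TNFRSF10B, TNFRSF10D, CASP8 and CASP10 the share was below 2%, and for TNFSF10 it was 0. The part of these overlaps in the levels was not tested.

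Pooled over its lists, the wider pathway did not show the same tilt. Across 6 lists of 46 genes around the death receptors, 36 averaged at least 1 FPKM. Of these, 4 (11.1%) were higher in PJ by 2-fold or more and 2 (5.56%) lower, close to the shares of all symbols. Their median log2 ratio was 0.30. Among other death receptors of the superfamily, 4 of 6 passed the filter and none of these was 2-fold apart on FPKM plus 1. TNFRSF1A, the main TNF receptor, was the highest, at 33.7 FPKM in PJ and 18.6 FPKM in PF, and the ectodysplasin receptor gene EDAR had the lowest mean, at 0.00537 FPKM in PJ and 0.111 FPKM in PF. TNFRSF21 (DR6) was at 23.6 FPKM in PJ and 11.3 FPKM in PF, with bounds apart. That is 2.08 times as deposited, and the log2 ratio of 0.996 on FPKM plus 1 is just under the cutoff. EDA2R, another ectodysplasin receptor gene, missed the filter on its mean but was at 1.59 FPKM in PJ (1.28 to 1.90) and 0.000630 FPKM in PF (0 to 0.123), with bounds apart. Among other ligands and soluble decoys only TNFRSF6B, the soluble decoy for FAS ligand, reached 1 FPKM, at 1.52 FPKM in PJ and 1.86 FPKM in PF, and FASLG was the lowest.

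Adaptors and regulators that act near the receptors were mostly present. Of 15 genes 14 passed the filter, 12 of them with a positive log2 ratio and 2 with a negative one. Of all symbols that passed, 34.2% were below 0. With the median ratio divided out, the median log2 ratio of the list was 0.10. At least 2-fold higher in PJ was 1 gene and lower 1, where 10.4% and 5.22% of symbols were. TRAF2, an adaptor of TNF receptor signalling, was at 16.5 FPKM in PJ and 5.72 FPKM in PF, a log2 ratio of 1.38. USP8, a deubiquitinase, was at 6.77 FPKM in PJ and 20.8 FPKM in PF, a log2 ratio of -1.49. PEA15, a death effector domain protein that binds FADD and caspase-8, had the highest mean of the list, at 48.8 FPKM in PJ and 37.7 FPKM in PF. RIPK3, the kinase of necroptosis, was the lowest, at 0.0147 FPKM in PJ and 0.0595 FPKM in PF.

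Downstream of the initiators, all 5 other caspases reached 1 FPKM in both libraries and none was 2-fold apart. The apoptosome caspase gene CASP9 was the lowest, at 5.89 FPKM in PJ and 4.22 FPKM in PF. All 7 genes of the mitochondrial link also passed, led by CYCS (cytochrome c), at 209 FPKM in PJ and 140 FPKM in PF. BID, the caspase-8 substrate that carries the signal to mitochondria, was at 57.6 FPKM in PJ (54.5 to 60.8) and 53.4 FPKM in PF (50.3 to 56.4), with overlapping bounds. Of these 7 genes 3 were at least 2-fold higher in PJ, where 10.4% of symbols were, and 1 was lower, where 5.22% were. DIABLO, which encodes an IAP antagonist released from mitochondria, was at 66.8 FPKM in PJ and 27.6 FPKM in PF. HTRA2, a mitochondrial protease, was at 26.5 FPKM in PJ and 11.95 FPKM in PF, and the pore-forming BAK1 at 18.8 FPKM in PJ and 8.18 FPKM in PF. With the median ratio divided out, HTRA2 (0.85) and BAK1 (0.88) were under 2-fold on the log2 scale while DIABLO was at 1.00. By that measure 6.22% of symbols were at least 2-fold higher. APAF1, the apoptosome scaffold and the lowest of the list, was lower in PJ, at 1.66 FPKM against 4.38 FPKM in PF.

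Inhibitors of caspases other than CFLAR that averaged at least 1 FPKM were not 2-fold apart. Of 7 IAP genes 5 passed the filter, 2 with a positive log2 ratio and 3 with a negative one. Their median log2 ratio was -0.27, below that of all symbols (0.22). BIRC5 (survivin) was the highest, at 150.5 FPKM in PJ and 135 FPKM in PF, and BIRC7 the lowest, at 0.191 FPKM in PJ and 0.158 FPKM in PF. XIAP, the direct inhibitor of executioner caspases, was at 5.9997 FPKM in PJ (5.43 to 6.57) and 9.05 FPKM in PF (8.18 to 9.91), lower in PJ with bounds apart and a log2 ratio of -0.52.

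**Figure D4:**
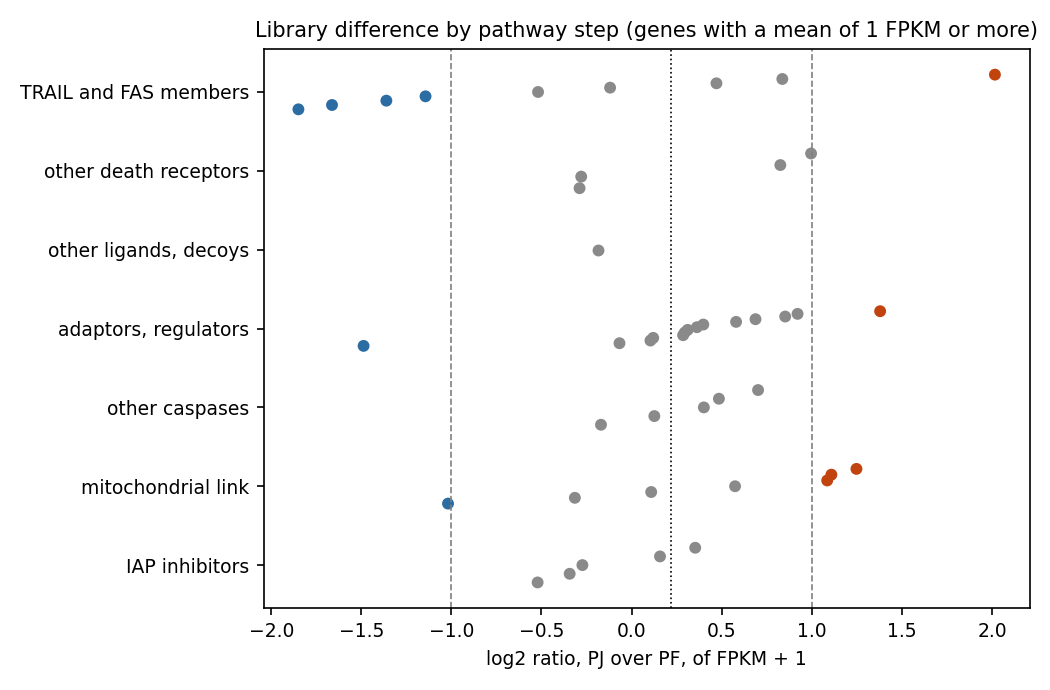
Log2 ratio of PJ over PF (FPKM + 1) for each gene that averages at least 1 FPKM, by pathway step; red points were at least 2-fold higher in PJ, blue points at least 2-fold lower and grey points neither, dashed lines mark 2-fold and the dotted line the median of all symbols (0.22). The top row, the TRAIL and FAS members, has 4 blue points, and the other 6 pathway lists have 2 in all.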

How the data were processed

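Paired-end TruSeq V2 libraries were made from TRIzol RNA, per the labels' protocols. The submitters' processing notes name TopHat2 2.0.8b, TopHat, Cufflinks and the hg19 genome; the Cufflinks version and annotation release were not given in the sources used. Deposited by the authors were FPKM values with lower and upper 95% bounds and a status for 56586 genes per library, per the file headers. Depth cannot be read from FPKM. Status FAIL (20 genes in PJ, 23 in PF, no member) was taken as missing, and rows sharing a symbol were summed (51609 symbols with a value in both). FPKM divides by each library's total, so abundant RNAs shift all other values. A difference is the log2 of FPKM plus 1 in PJ over the same in PF, counted at 2-fold among symbols that average at least 1 FPKM. Ratio intervals set every bound at its extreme. Gene types and transcripts came from GENCODE 29 (88.7% of identifiers matched) and promoters from RefSeq. The members and lists were chosen with earlier results of these data known. Named list genes are those 2-fold apart and the highest and lowest of each list, apart from a few that are not reported; TNFRSF21, EDA2R, BID, XIAP and CHMP7 are added as examples after their values were seen. The fold counts were tested on simulated data with planted changes and independent noise. That checks the calling and says nothing on the variation between these cultures. Python 3.11.15, numpy 2.4.6, pandas 2.3.3 and matplotlib 3.10.9 were used.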

Additional observations from a re-analysis of the deposited data

How the results depend on the processing

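Of the counts, 8 members at 1 FPKM or more in both libraries became 9 at a threshold of 0.5 FPKM and 6 at 5 FPKM, and ranged from 8 to 9 with either library alone. The count of members 2-fold apart was 5 (4 lower and 1 higher in PJ) in the report. Adding 5 FPKM gave 3 in all, of which 2 were lower, because FAS and CFLAR dropped out, and adding 0.1 FPKM gave 2 higher, because CASP10 entered. Low members move with the amount added by construction. Dividing out the median ratio, a common sum over genes of 200 bp or more, no filter, the highest row per symbol and FAIL taken as listed left the same 5 genes. With either library alone the decoy to signalling ratio ranged from 0.434 to 0.541 and CFLAR over the initiator caspases from 0.439 to 0.793. No paired analysis was possible because the libraries form 1 group. A difference between libraries has no value with a library left out. The unknown depth limits statements on TNFSF10 and FASLG.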

Other observations

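By a fixed rule, the protein-coding symbols nearest to a receptor in level were sought as the smallest distance in log2(FPKM + 1) over the 2 libraries among 19038 symbols. Nearest to FAS were SIPA1L3 (2.87 FPKM in PJ and 8.90 FPKM in PF), CCNG2, a cyclin gene (3.06 in PJ and 8.86 in PF), and MGMT, a DNA repair gene (2.96 in PJ and 8.37 in PF). Nearest to TNFRSF10B were the actin-associated gene PALLD (24.3 FPKM in PJ and 98.8 FPKM in PF), the junction gene JUP (27.6 in PJ and 93.1 in PF) and ITM2B (27.0 in PJ and 80.8 in PF). The likeness is a description only. Among protein-coding genes beside FAS and FADD, STAMBPL1, 15.5 kb from FAS, was at 7.35 FPKM in PJ and 1.62 FPKM in PF, and PPFIA1, beyond FADD, at 24.8 FPKM in PJ and 26.2 FPKM in PF. ANO1, a chloride channel gene on the other side of FADD, was at 4.79 FPKM in PJ and 11.2 FPKM in PF. ACTA2, which overlaps FAS, was at 0.503 FPKM in PJ and 1.08 FPKM in PF.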
